A study of Mus musculus with 27 samples.

Results

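Lacrimal glands taken 14 days after an injection of interleukin-1 alpha (IL-1α) were set against uninjured glands, to ask which transcripts still differed that late after injury. The comparison holds 3 day 14 libraries and 3 day 0 libraries, chosen by their labels, which is 6 of the 26 libraries with values in the series (27 in the labels). A further 3 libraries came from glands 14 days after saline, and are given beside them because they share the injection and the time but not the cytokine. All mice were wild type BALB/c, aged 8-10 weeks by the labels and female by the study's text. The day 14 glands had received 1 µg IL-1α, the saline glands saline alone, and the day 0 glands no injection. Each library is mRNA of whole lacrimal gland from 1 numbered mouse, so vessels, fat and any tissue taken along with the gland contribute to it. In such bulk RNA, fewer cells of a type and less RNA per cell cannot be told apart. The day of harvest of the uninjected glands is not given in the sources used here, so injection, time and harvest cannot be told apart between day 14 and day 0.

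The lacrimal gland makes the watery part of the tear film and most of its protein. Secretory acinar cells form the bulk of it and release secretoglobins, odorant binding proteins, lipases and lysozyme into ducts, with contractile myoepithelial cells, fibroblasts, resident macrophages and IgA plasma cells around them. IL-1α is an alarm cytokine that sets off acute inflammation in tissue, and the gland of a mouse can regrow acini after such an injury.

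Depth was similar across the libraries, with 10.6 to 11.5 M estimated counts at day 14, 11.1 to 11.99 M after saline and 11.4 to 13.1 M at day 0. Values are these estimated counts after the scaling by library that the authors applied, called normalized values below, and 1 read was worth 1.22 to 1.34 at day 14 and 1.14 to 1.75 at day 0. Between 71.3 and 72.4% of the day 14 totals, and between 70.8 and 75.3% of the day 0 totals, fell on 10 genes. Acinar markers were abundant throughout. The water channel gene Aqp5 lay between 1732 and 1916 at day 14 and between 2104 and 2262 at day 0, and Bhlha15, a transcription factor of secretory cells, between 6073 and 6353 at day 14 and between 6566 and 8142 at day 0. Day 0 replicate 1 stood apart from the other uninjured glands. Its normalized total was 20.1 M, against 14.98 and 14.86 M in replicates 2 and 3, and 858 of 13762 genes (6.23%) lay at least 1 log2 unit above or below both of them. Replicates 2 and 3 of day 0 had 445 and 515 such genes, and the day 14 libraries 452, 437 and 508 (3.69% in replicate 3). The named genes that were no longer called without day 14 replicate 3 or without day 0 replicate 1 are therefore given.

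At day 14, 229 of 13762 genes tested (1.66%) differed from day 0 by at least 2-fold at an adjusted p of at most 0.05 in limma, 175 of them higher (1.27%) and 54 lower (0.392%). The 3 day 14 libraries lay wholly beyond the 3 day 0 libraries for 211 of the 229, against 24.7% of all genes tested. Changes are given as log2 of value + 1, which understates the change of genes with low values. The directions differed in the level of their genes. Of the 175 higher genes, 89 had a day 0 mean below 10 and 28 were at 0 in day 0 replicate 1, while 3 of the 54 lower genes had a day 0 mean below 10. With values scaled to equal library totals the median of all genes was 0.23 in place of 0.01, and 303 genes were higher and 27 lower, that is 91.8% higher in place of 76.4%.

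Irs2 (insulin receptor substrate 2, chr8:10984681-11008458), which carries the signal of the insulin and IGF-1 receptors, had the largest change among the lower genes that kept their call in every setting tried. Its normalized values were 48.2, 39.0 and 41.1 at day 14, 42.1, 39.3 and 50.7 after saline, and 302, 765 and 246 at day 0. Every gland taken 14 days after an injection, with either agent, lay far below every uninjured one. The log2 change from day 0 was -3.14 ± 0.33 at day 14 (SE, n = 3 each, adjusted p = 4e-05) and -3.10 in saline glands (adjusted p = 3.07e-05), both against the same day 0 libraries. Day 14 and saline glands differed by -0.04, with a 95% interval of -0.73 to 0.66. Through the 8 time points of the series (day 0, each of days 1 to 5, day 7 with 1 library, then day 14) the Irs2 means were 437, 47.0, 239, 69.0, 164, 94.6, 65.8 and 42.8. The level at day 1 was already close to that at day 14, with higher means on the days between.

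Heat shock genes, which encode chaperones of the cytosol, had a median below that of all genes, and few passed the 2-fold threshold. Of 20 members tested, 2 fell, none rose, and the median change was -0.56 against 0.01 for all genes. Hspa8, the constitutive HSP70 (chr9:40800984-40810087), fell to 765, 710 and 930 at day 14, with 830, 787 and 702 after saline and 2154, 2824 and 2002 at day 0. Hsph1, a large HSP70 relative that serves as its exchange factor (chr5:149614287-149636376), fell to 126, 140 and 216, with 153, 150 and 136 after saline and 474, 534 and 432 at day 0. The groups did not overlap for either gene. Their log2 changes were -1.53 ± 0.16 (adjusted p = 4e-05) and -1.61 ± 0.18 (adjusted p = 6.26e-05; SE, n = 3 each). Stip1, Dnaja1 and Hsp90aa1, which act with HSP70 or HSP90, passed the adjusted p but not the fold, at -0.80, -0.79 and -0.72. Hspa8 has processed pseudogene copies in the mouse genome, so its estimated count carries the uncertainty of shared reads. Over the 8 time points the means of Hspa8 were 2327, 5432, 2513, 2015, 3186, 2948, 1930 and 802. Saline glands averaged 773, and the means of days 1 to 5 lay between 2015 and 5432.

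Calls among genes that answer glucocorticoids and fasting were all in the lower direction. Of 29 members tested 7 fell and none rose, with a median of -0.41, and Irs2 is one of the 7. Dusp1, a phosphatase that turns off MAP kinases, fell to 66.9, 48.7 and 71.1 at day 14, against 66.4, 41.8 and 119 after saline and 170, 229 and 126 at day 0 (log2 change -1.45, adjusted p = 0.0112). Tsc22d3, the glucocorticoid-induced leucine zipper gene, fell to 96.4, 102 and 116, against 212, 255 and 191 at day 0 (-1.05, adjusted p = 0.00271). For both genes the day 14 and day 0 libraries did not overlap. Angptl4, a secreted inhibitor of lipoprotein lipase, changed by -1.41 (adjusted p = 0.0121) and Cebpd, a transcription factor, by -1.16 (adjusted p = 0.0374). Fkbp5, a co-chaperone of the steroid receptors, had 102, 133 and 299 at day 14 and 291, 319 and 383 at day 0. Replicate 3 of day 14 lay within the day 0 range for Fkbp5, where the change was -1.04 with it (adjusted p = 0.0269) and -1.49 without it (adjusted p = 0.000805). Sgk1, a kinase of the same list, lay just under the fold at -0.97. Klf9, a transcription factor that glucocorticoids raise, was at -0.18 (adjusted p = 0.291). Leaving out day 14 replicate 3 raised the count of 7 to 9, while leaving out replicate 1 of that day, or scaling to library totals, left 3.

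Per1 was the only called member of the 20 core clock genes tested, whose median was 0.09. This repressor of the clock, which also answers glucocorticoids, had 65.6, 87.7 and 141 at day 14, 74.1, 46.7 and 172 after saline and 133, 496 and 480 at day 0. The low value of day 0 replicate 1 overlapped the day 14 range. Its log2 change was -1.75 ± 0.44 (SE, n = 3 each, adjusted p = 0.0227), and the call was lost in 8 of 17 other settings, among them scaling to library totals (adjusted p = 0.0661). Over the same 8 time points the means of Per1 were 370, 98.0, 314, 222, 310, 128, 177 and 98.1.

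Immediate early genes, which cells switch on within minutes of a signal, gave 4 lower and 1 higher among 25 tested, with a median of -0.45. Dusp5, a nuclear phosphatase for ERK (chr19:53529109-53542431), fell to 238, 188 and 223 at day 14, against 244, 247 and 268 after saline and 540, 883 and 597 at day 0 (-1.61 ± 0.17, SE, n = 3 each, adjusted p = 4e-05). Ccn2, a matrix-associated growth factor, fell by 1.54 (adjusted p = 0.00747) and Klf2, a transcription factor of endothelium and lymphocytes, by 1.00 (adjusted p = 0.0182), Dusp1 being the fourth. Ier5, which encodes a nuclear protein, went the other way. It rose to 49.5, 41.4 and 49.9 at day 14, against 48.5, 35.6 and 46.0 after saline and 19.3, 18.3 and 20.8 at day 0 (1.23 ± 0.16, adjusted p = 0.000325). Fos and Egr1, the classic members, did not pass the test (adjusted p = 0.352 and 0.957). Outside the list Pim3, a survival kinase (chr15:88862186-88865726), fell to 442, 422 and 522, against 433, 371 and 816 after saline and 1300, 2089 and 1639 at day 0 (-1.84 ± 0.25, adjusted p = 0.000325). Irs2, Hspa8, Hsph1, Dusp5 and Pim3 were the 5 lower genes among the 56 named ones that kept their call in every setting tried.

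Several of these lower genes hold the palindrome CACGTG, the core sequence that clock and other basic helix-loop-helix proteins bind, in the 250 bases before their RefSeq start. It was found in 9 of the 35 called lower genes with a promoter in the table (25.7%), in 6 of 117 called higher genes (5.13%), in 997 of 10318 genes tested (9.66%) and in 6.02% of all 32851 promoters. The palindrome reads the same on both strands and was searched for as these 6 letters alone. The 9 lower genes with it were Aen, Dusp1, Fkbp5, Hsph1, Irs2, Mcoln2, Per1, Susd1 and Ubxn10. Of the named lower genes that kept their call in every setting tried, Irs2 and Hsph1 were among the 9. Hspa8, Dusp5 and Pim3 were not, which can mean no palindrome or no promoter to search. The 5 sequences are from genes picked for holding the palindrome, so they do not stand for the lower genes as a set. They are from RefSeq on GRCm38.p6 and run 5′ to 3′ on the gene's strand toward its start, with the palindrome in capitals. RefSeq starts can differ from the ends of the gene spans given above.
Irs2, chr8:11008930-11009023, minus strand: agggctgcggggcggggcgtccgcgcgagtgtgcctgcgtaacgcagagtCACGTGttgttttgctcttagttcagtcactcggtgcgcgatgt
Hsph1, chr5:149636316-149636384, minus strand: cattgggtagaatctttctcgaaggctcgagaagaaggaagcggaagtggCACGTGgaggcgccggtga
Dusp1, chr17:26508543-26508648, minus strand: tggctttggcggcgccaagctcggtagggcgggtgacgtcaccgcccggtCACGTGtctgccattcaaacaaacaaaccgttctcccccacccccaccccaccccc
Per1, chr11:69098733-69098838, plus strand: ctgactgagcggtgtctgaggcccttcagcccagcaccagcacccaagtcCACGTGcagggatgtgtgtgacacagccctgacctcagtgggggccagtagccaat
Fkbp5, chr17:28486263-28486368, minus strand: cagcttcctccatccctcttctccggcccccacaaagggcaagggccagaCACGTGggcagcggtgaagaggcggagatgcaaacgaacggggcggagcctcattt
The first base of the palindrome lay 44 bases before the start in Irs2, 19 in Hsph1, 126 in Dusp1, 166 in Per1 and 169 in Fkbp5. The letters are a description, no binding was measured, and no test was made of these shares.

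Among acinar secretory products, 4 of 29 tested fell and 1 rose, with a median of -0.41 (-0.18 with values scaled to library totals). The 4 are secretoglobins, small secreted dimeric proteins of tears. Scgb2b24 fell to 57322, 24925 and 35727 at day 14, against 49633, 25134 and 47105 after saline and 159860, 203063 and 120539 at day 0 (-2.09, adjusted p = 0.00364). Scgb1b24 fell to 1343, 541 and 1031, against 5964, 5702 and 2449 at day 0 (-2.26, adjusted p = 0.00271). The libraries did not overlap for these genes. The pair Scgb1b20 and Scgb2b20 changed by -2.52 and -2.51 (adjusted p = 0.0222 and 0.0271), with day 14 replicate 2 the lowest library for both, at 1169 and 1186. Without day 0 replicate 1 this pair was not called (adjusted p = 0.0507 and 0.0641), which left 2 lower members. Lipo1, a lipase of the same secretions, had 1364, 95.5 and 701 at day 14 and 6553, 13294 and 2671 at day 0 (-3.77, adjusted p = 0.0172, and 0.0531 without day 0 replicate 1). These belong to families of near-identical genes, between which the counting may have divided reads. Scgb2b2, among the most abundant transcripts of the gland, did not pass the test (-0.48, adjusted p = 0.383), and of 20 genes of acinar identity and regulated secretion none was called, with a median of 0.09.

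Markers of fat had lower summed levels in both injected groups. Of 17 adipocyte genes 2 fell and none rose, with a median of -0.73. Cfd, the complement factor adipsin that fat cells secrete, fell to 74.97, 116 and 71.1 at day 14, against 112, 82.3 and 158 after saline and 197, 273 and 200 at day 0 (-1.36, adjusted p = 0.00369). Cidec, a lipid droplet protein, had 13.4, 34.1 and 12.5 at day 14 and 57.9, 84.6 and 44.2 at day 0 (-1.69, adjusted p = 0.0102). Adipoq and Fabp4, defining adipocyte genes, passed the adjusted p but not the fold at -0.96 and -0.86. The summed level of the list was 1174, 1773 and 1286 at day 14, 1309, 1108 and 1666 after saline, and 2049, 2418 and 1950 at day 0. In the authors' scaling injected and uninjured glands did not overlap. The library total was 20.1 M in day 0 replicate 1, 14.0 M in day 14 replicate 2 and 12.8 M in saline replicate 3, and relative to these totals the sums overlap. With values scaled to library totals the list median was -0.51, with the same 2 members called. The part that the amount of fat in the sample has in other results was not tested.

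A few genes of resident macrophages and of lymphatic endothelium were called lower, while their lists were not low as a whole. The median was 0.44 over 15 endothelial genes and 0.14 over 21 monocyte and macrophage genes, of which 1 was higher and 1 lower. Lyve1, a hyaluronan receptor of both cell types, fell to 2.68, 3.66 and 7.48 at day 14, against 2.55, 7.37 and 8.06 after saline and 26.3, 27.4 and 18.2 at day 0 (-2.23, adjusted p = 0.00648), and was the 1 called member of 15 endothelial genes. Cd163, the haemoglobin scavenger receptor of resident macrophages, had 22.8, 49.97 and 41.1 at day 14 and 119, 89.2 and 58.5 at day 0 (-1.22, adjusted p = 0.0121). Cd209b, a lectin of macrophages, had 4.02, 11.0 and 11.2 at day 14 and 50.9, 30.9 and 14.3 at day 0 (-1.70, adjusted p = 0.0162), and Fcna, a ficolin that starts the lectin pathway of complement, changed by -1.74 (adjusted p = 0.0271). Without day 0 replicate 1 these 3 were not called (adjusted p = 0.064 for Cd163, 0.0903 for Cd209b and 0.134 for Fcna), nor without day 14 replicate 1, and Cd163 and Fcna were not called with values scaled to library totals. Of 18 complement genes 3 fell and none rose, with a median of -0.05: Cfd, Cfp (properdin, -1.03) and the C5a receptor C5ar1 (-1.29). Of the 3, 1 was called without day 0 replicate 1 and 1 with values scaled to library totals. None of the 3 C1q chains was called. Over the 8 time points the means of Lyve1 were 24.0, 15.8, 13.9, 15.5, 20.5, 12.7, 23.2 and 4.60, with day 14 the lowest.

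**Figure D1:**
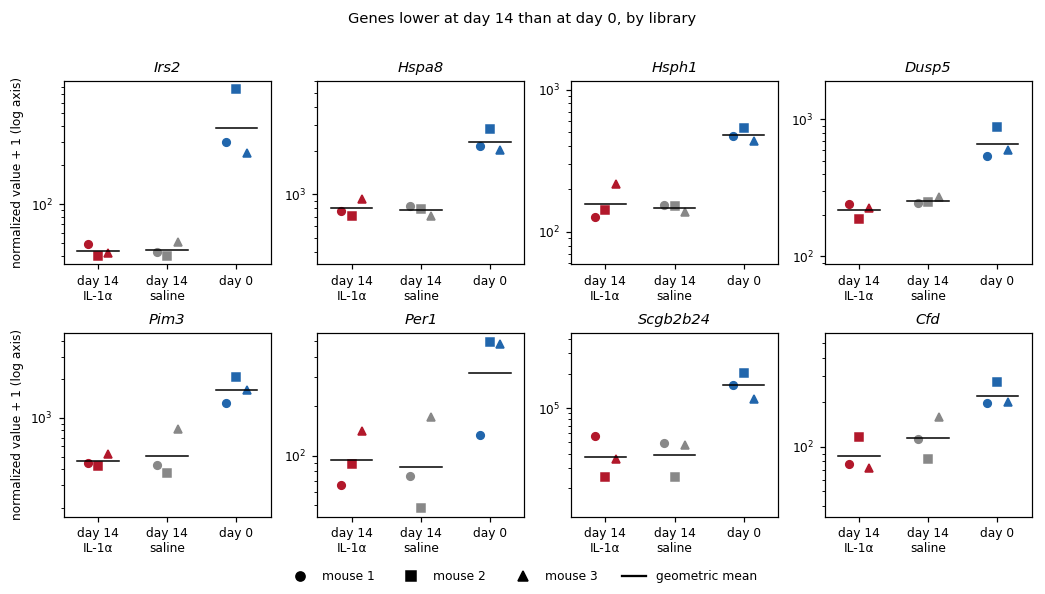
Normalized value + 1 on a log axis for 8 genes that fell at day 14, with 1 panel per gene. Points are libraries of the day 14 IL-1α group (left), the day 14 saline group (middle) and day 0 (right), shapes give the mouse number and bars the geometric mean of 3 libraries. In every panel but that of Per1 the 3 day 14 points lie below the 3 day 0 points, with the saline points beside those of day 14.

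On the rising side were secretory products that uninjured glands hardly express. Mucl1, a small mucin-like protein, had 48.2, 25.6 and 13.7 at day 14 and 10.2, 2.46 and 2.30 after saline, and was listed at 0 in all 3 day 0 libraries (adjusted p = 0.000517). Klk1b26, a kallikrein of salivary glands, had 42.8, 15.8 and 7.48 at day 14, with 3.83, 1.23 and 0 after saline and 0 throughout day 0 (adjusted p = 0.00479). Smgc, a submandibular gland protein that is transcribed from the start of Muc19, had 32.1, 13.4 and 1.25 (adjusted p = 0.018), also at 0 in day 0. Muc19, a gel-forming mucin, had 57.6, 20.7 and 9.97, against 0, 1.14 and 0 at day 0 (adjusted p = 0.00369). Among the fitted libraries Muc19 reached 10 only at day 14 and in 1 day 7 library. It passed the filter of 10 in 2 libraries through day 14, so its adjusted p is not independent of its level there. Smgc and Muc19 overlap on the same strand, so their reads may be shared. The 1 day 7 library in the fit had 1197 for Mucl1, 62.0 for Klk1b26, 825 for Smgc and 491 for Muc19. The day 14 means were 29.2, 22.1, 15.6 and 29.4, and the means of days 1 to 5 were at most 4.86. In each of these 4 genes day 14 replicate 1 was the highest and replicate 3 the lowest.

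The same order of libraries held for secretoglobin genes. Scgb1b27 rose to 995, 249 and 137 at day 14, against 86.8, 43.0 and 44.9 after saline and 24.6, 1.14 and 7.80 at day 0 (5.37, adjusted p = 0.0143). Scgb2b26 rose to 650, 138 and 72.3, against 49.8, 19.7 and 17.3 after saline and 15.8, 4.57 and 7.80 at day 0 (4.32, adjusted p = 0.00316). Prol1, a proline-rich secreted protein, was the 1 called higher member of the acinar product list, though its libraries were ordered like those of the salivary genes above. It had 556, 173 and 92.2 at day 14 and 35.1, 0 and 3.90 at day 0 (5.21, adjusted p = 0.0471). Its adjusted p was 0.147 without day 14 replicate 1 and 0.0596 without replicate 3. Which gland its reads came from was not tested. Scgb2b17 was highest in replicate 3 instead, with 18.9, 18.3 and 81.7 at day 14 and 6.93, 2.41 and 0 at day 0 (adjusted p = 0.0212, and 0.0848 without replicate 3). Day 14 and day 0 did not overlap for any of the 4. The 1 day 7 library had 13615 for Scgb1b27, 8973 for Scgb2b26, 8021 for Prol1 and 17.3 for Scgb2b17. Their day 14 means were 460, 287, 274 and 39.6. Mucl1, Klk1b26, Smgc and Muc19 belong to a list of 23 salivary gland products tested, of which 4 rose and none fell. The median of the list was -0.21, but 0.02 with values scaled to library totals and 1.15 without day 14 replicate 3.

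The abundant parotid products of that list did not follow the groups. Bpifa2, the parotid secretory protein, had 214221, 15745 and 1030 at day 14, 70.2, 71224 and 141703 after saline and 150525, 2616 and 36840 at day 0 (adjusted p = 0.92). Amy1, salivary amylase, had 61628, 5204 and 342 at day 14, 33.2, 22806 and 43549 after saline and 43715, 855 and 11507 at day 0. Both vary by orders of magnitude between mice of 1 group, and Smr3a, Cst10, Chia1 and Dcpp1 were ordered the same way. The library median of the list against day 0 was 2.98, -0.23 and -0.41 at day 14 and -0.25, 1.16 and 1.72 after saline. Mucl1, Klk1b26, Smgc, Muc19, Scgb1b27, Scgb2b26 and Prol1 were highest in the day 14 library richest in Bpifa2. Saline replicates 2 and 3 and day 0 replicate 1 had more Bpifa2 than day 14 replicate 2 and less of those 7 genes. Bpifa2 is a parotid product and Smgc a submandibular one. The part of salivary gland tissue in the change of the 7 genes was not tested.

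B cell genes gave calls in the higher direction. Of 9 tested 3 rose and none fell, with a median of 1.21, with 1 called without day 14 replicate 1 and 2 without day 0 replicate 1. Ms4a1, which encodes the B cell surface protein CD20, had 6.69, 7.31 and 7.48 at day 14 and 2.55, 4.91 and 4.60 after saline and was at 0 in all day 0 libraries (adjusted p = 0.00517). Spib, a transcription factor of B and plasmacytoid dendritic cells, had 4.02, 2.44 and 2.49 at day 14 and 0 in all day 0 libraries (adjusted p = 0.0156). Blnk, an adaptor of the B cell receptor, had 60.2, 43.9 and 42.4 at day 14 and 24.6, 13.7 and 33.8 at day 0 (1.06, adjusted p = 0.0239). The Ms4a1 and Spib values are worth few reads per library. Ighm, the IgM heavy chain and the 1 higher member of 17 plasma cell genes, had 171, 283 and 243 at day 14 and 130, 50.3 and 75.4 at day 0 (1.51, adjusted p = 0.0203). The 1 lower member, Iglv1, a lambda light chain variable segment, changed by -2.89 (adjusted p = 0.0433), and the heavy chain segment Ighv2-2 was at 0 in all day 14 libraries with 72.5, 1.14 and 51.4 at day 0 (adjusted p = 0.0445). Variable segments follow the clones a mouse carries and were called in 4 and 3 of 17 other settings.

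Myeloid and interferon genes gave scattered calls. Among 21 monocyte and macrophage genes 1 rose and 1 fell (Cd163). Trem2, a lipid receptor of macrophages, rose to 21.4, 13.4 and 9.97 at day 14, against 7.02, 2.29 and 3.90 at day 0 (1.59, adjusted p = 0.0121). Gpnmb, a glycoprotein of lipid-laden macrophages, had 14.7, 13.4 and 130 at day 14, 23.0, 12.3 and 20.7 after saline and 1.75, 6.86 and 1.3 at day 0 (3.07, adjusted p = 0.0137). Its value in replicate 3 was far above the others, and without that library the change was 2.03 (adjusted p = 0.0493). Itgax and Fscn1, genes of dendritic cells, rose by 1.43 and 1.23 (adjusted p = 0.0155 and 0.024), 2 of 10 in their list, and neither was called without day 14 replicate 3 or without day 0 replicate 1. Of 29 interferon response genes 2 rose and none fell, with a median of 0.42. Oas1a, an antiviral 2-5A synthetase, had 32.9, 42.2 and 52.5 at day 14 and 9.63, 20.5 and 11.0 at day 0 (1.61, adjusted p = 0.00862), and Mx1, an antiviral GTPase that many laboratory strains carry in a defective form, rose by 1.23 (adjusted p = 0.0456). Trbc1, a constant segment of the T cell receptor, was the 1 called of 12 T and NK cell genes (1.58, adjusted p = 0.0442).

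Il1a, the gene of the injected cytokine, was the 1 called member of 22 acute cytokine and chemokine genes. It had 13.9, 12.4 and 13.7 at day 14, 4.22, 11.5 and 4.60 after saline and 1.98, 4.06 and 3.90 at day 0 (1.77, adjusted p = 0.018, and 0.0771 without day 0 replicate 1). The difference of day 14 from saline did not pass the test (adjusted p = 0.987). Scd3, a desaturase of sebaceous and Harderian glands, was the 1 called of 7 in its list (1.95, adjusted p = 0.0375). Btg3, an antiproliferative gene, had 64.6, 29.7 and 30.4 at day 14, 27.1, 60.1 and 87.4 after saline and 0.01, 0.59 and 1.23 at day 0 (4.70, adjusted p = 0.0209). Its day 0 values are worth about 1 read or less per library, and whether its reads are shared with another locus was not tested. Nrarp, a Notch target that dampens Notch signalling, had 13.0, 11.8 and 19.9 at day 14 and 0, 0 and 7.80 at day 0 (adjusted p = 0.034), and Zfp960, a zinc finger gene, had 14.1, 8.57 and 13.7 at day 14 and 0, 0 and 5.27 at day 0 (adjusted p = 0.0105).

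**Figure D2:**
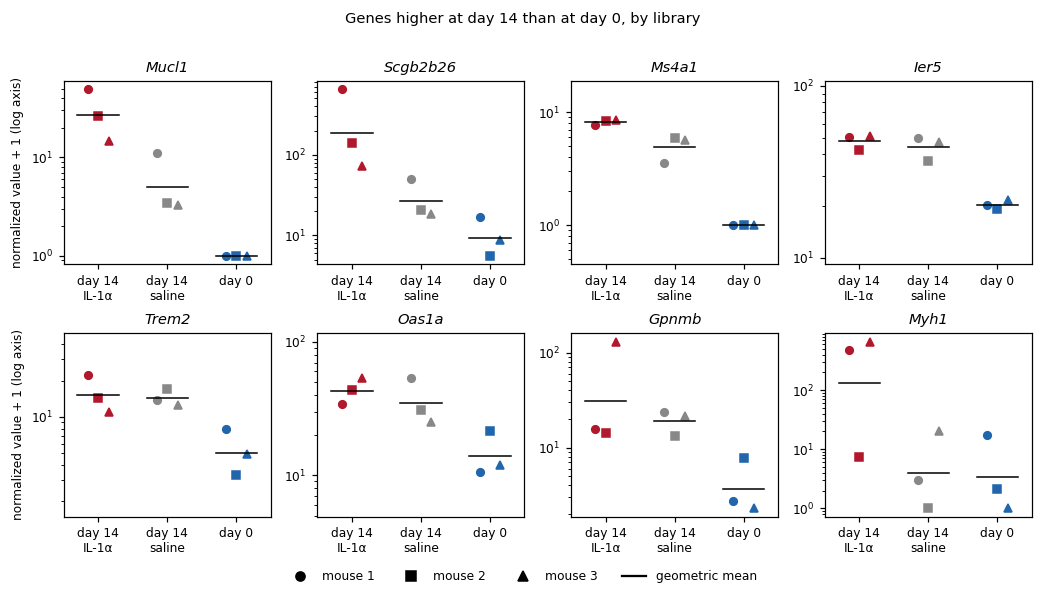
Normalized value + 1 on a log axis for 8 genes that rose at day 14, with groups, point shapes and bars as in the plot of lower genes. Mucl1 and Ms4a1 sit at 0 (drawn at 1) in all day 0 libraries. The Gpnmb value of 130 belongs to day 14 replicate 3 alone, and in Myh1 day 14 replicates 1 and 3 lie far above replicate 2.

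Of 42 gene lists, 21 had at least 1 called member, with 24 list members higher and 23 lower in all. Of all genes tested 1.27% were called higher and 0.392% lower. The lists were chosen with earlier results of these data known, and no share over their pooled members was taken. These counts therefore do not show whether list members were called more often than genes at large. No member was called among 18 duct, 16 myoepithelial, 12 neutrophil, 38 cell cycle, 31 collagen and crosslinking, 30 ribosomal protein, 17 antigen presentation and 13 mitochondrially encoded genes. Genes of folding in the endoplasmic reticulum and of the ATF4 program had no call either, at medians of -0.32 and -0.34.

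Against saline glands of the same day, no gene was called at day 14 by limma (0 of 13762, or 0%), with 682 genes (4.96%) at an unadjusted p under 0.05. Saline glands against day 0 gave 132 called genes (0.959%), 92 higher (0.669%) and 40 lower (0.291%), from the same 3 day 0 libraries. For the main lower genes the difference was small. That of day 14 from saline was 0.05 for Hspa8 (95% interval -0.30 to 0.39), 0.09 for Hsph1 (-0.28 to 0.47), -0.23 for Dusp5 (-0.58 to 0.11) and -0.14 for Pim3 (-0.65 to 0.37). All 4 intervals include 0 and end within 1 log2 unit of it. Intervals were wider for other genes. Mucl1 was 2.41 above saline (1.03 to 3.79, adjusted p = 0.987) and Per1 0.15 above (-0.77 to 1.06).

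Day 14 replicate 3 carried a matrix signal that its group mates did not. Of 31 collagen and crosslinking genes, 30 were highest in replicate 3 of the 3 day 14 libraries, set beside 34.4% of all genes, and 10 of them lay at least 1 log2 unit above both others. The list median against day 0 was -0.28, -0.09 and 0.81 in replicates 1, 2 and 3. Col1a1, the main fibrillar collagen chain, had 313, 384 and 1015 at day 14 and 293, 416 and 313 at day 0, and Col3a1 had 1433, 1466 and 3752 against 1488, 1861 and 1543. Neither was called, nor was any collagen of the list. Of 37 matrix glycoproteins and proteases 34 (91.9%) were highest in replicate 3, and all 21 fibroblast genes were. The matrix list had 2 called members, Fbln7, a fibulin, and Mfap4, a microfibril protein that was also the 1 called fibroblast gene. Mfap4 had 21.4, 26.8 and 57.3 at day 14, against 7.02, 13.7 and 10.4 at day 0 (adjusted p = 0.018), and Fbln7 had 29.5, 14.6 and 28.7, against 3.51, 9.15 and 6.50 (adjusted p = 0.0253). Neither was called without replicate 3 (adjusted p = 0.0748 for Mfap4 and 0.073 for Fbln7) or without day 0 replicate 1 (0.0812 and 0.114). Cell cycle genes had a median of 0.60 in replicate 3, against 0.08 and 0.05 in replicates 1 and 2, and 22 of 38 were highest there.

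Genes were also picked because replicate 3 lay at least 2 log2 units from both other day 14 libraries, and their values are a description with no test. Above were Tnc (tenascin C, a matrix protein of repair) with 4.02, 11.0 and 96.0, Cilp, a matrix protein of cartilage and fibroblasts, with 5.36, 3.66 and 74.8, F10 (coagulation factor X) with 4.02, 1.22 and 53.6, and Thbs4, a thrombospondin of tendon and muscle, with 0, 3.66 and 32.4. Muscle genes were also among them, with Myh8, a developmental myosin, at 0, 0 and 68.5. Igkv4-74, Nanp, Prss23os, Cpt1b, Gemin4, Ret, Gpnmb, Ckmt2, Rny3 and Myh2 completed the 15 above. Below were the parotid genes Bpifa2, Amy1, Smr3a, Prb1, Chia1, Cst10 and Dcpp1, and beside them Zfp97, Igkv1-135, Ahcy, Tmsb15l, Bglap2, Il27ra, Rnf208 and Dhrs13os. Ribosomal protein genes shifted by less but together, 27 of 30 being lowest in replicate 3, with medians of -0.18, -0.22 and -0.35 in replicates 1, 2 and 3.

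Skeletal muscle genes were high in 2 day 14 libraries. Their summed level was 4095, 144 and 3787 at day 14, 99.8, 68.9 and 449 after saline and 1092, 86.3 and 81.7 at day 0, so the groups overlapped. Of 21 tested 3 rose and none fell, and the median was 2.71. Without day 14 replicate 3 none was called, and without replicate 1 none was called. Myh1, the fast myosin heavy chain 2X, had 474, 6.41 and 665 at day 14 and 16.7, 1.14 and 0 at day 0 (5.30, adjusted p = 0.0487, and 0.165 without replicate 3). Des, the muscle intermediate filament desmin, had 68.3, 8.53 and 117 at day 14 and 12.3, 3.43 and 10.4 at day 0 (adjusted p = 0.0304, and 0.135 without replicate 3). Myh2, another fast myosin, had 10.3, 1.22 and 71.2 at day 14 (adjusted p = 0.0328, and 0.158 without replicate 3). Csrp3, a muscle LIM protein outside the list, had 13.4, 1.22 and 23.7 at day 14 (adjusted p = 0.0426, and 0.159 without replicate 3). Both were at 0 in all day 0 libraries. Among the fitted libraries Csrp3 reached 10 only in day 14 replicates 1 and 3, so it passed the filter of 10 in 2 libraries through day 14 alone. The adjusted p of Csrp3 is therefore not independent of its level at day 14. Acta1 and Ckm, actin and creatine kinase of muscle fibres, did not pass the test, with 538, 12.2 and 515 at day 14 and 84.2, 4.58 and 0 at day 0 for Acta1. Muscle genes moved between libraries of 1 group by as much as between groups. The part of muscle tissue taken with the gland was not tested.

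**Figure D3:**
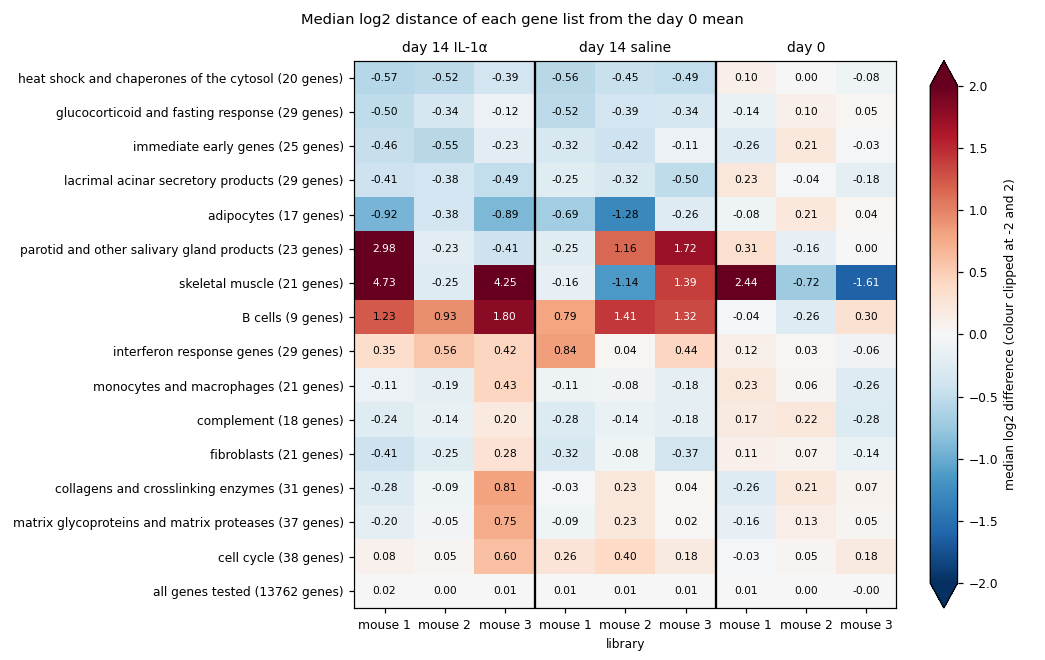
Median log2 difference from the day 0 mean for 15 gene lists and for all genes tested (rows) in 9 libraries (columns, with day 14 IL-1α, day 14 saline and day 0 from left to right); colours are clipped at -2 and 2. Heat shock, acinar product and adipocyte lists are below 0 in all 6 injected glands, collagen and matrix lists are highest in day 14 mouse 3 (0.81 and 0.75), and muscle and salivary lists differ between mice of the same group.

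Leaving out single libraries changed the counts and the calls of named genes. Without day 14 replicate 3 the count was 234 (1.7%), 155 higher and 79 lower, and 159 genes were called both with and without it, 113 of the 175 higher and 46 of the 54 lower. Thus 70 calls were lost and 75 gained. Leaving out day 0 replicate 1 had the larger effect, with 78 higher and 32 lower genes, of which 57 and 29 had been called with it. Without day 0 replicate 2 there were 228 higher and 44 lower genes and without day 0 replicate 3 there were 247 and 72. Without day 14 replicate 1 the counts were 83 and 37, and without day 14 replicate 2 they were 118 and 38. With both day 14 replicate 3 and day 0 replicate 1 left out, an alternative added after the data were seen, 87 genes were higher and 55 lower. Of the 56 named genes followed through 17 settings, 6 kept their call in each (Irs2, Hspa8, Hsph1, Dusp5, Pim3 and Mucl1, the last in the 16 settings that tested it) and none changed direction. With only the 6 single leave-outs counted, 18 of the 56 kept their call in each, the 12 others including Ccn2, Cfd, Lyve1, Scgb1b24 and Scgb2b24 among the lower genes and Ier5, Klk1b26, Ms4a1, Muc19, Oas1a and Scgb2b26 among the higher. Each of the remaining 38 lost its call without at least 1 library, 27 of the 56 without day 0 replicate 1, 25, 19 and 15 without day 14 replicates 1, 2 and 3, and 17 and 8 without day 0 replicates 2 and 3. The 27 were Angptl4, Blnk, Btg3, C5ar1, Cd163, Cd209b, Cfp, Csrp3, Fbln7, Fcna, Fscn1, Gpnmb, Ighv2-2, Iglv1, Il1a, Itgax, Lipo1, Mfap4, Mx1, Myh2, Nrarp, Scd3, Scgb1b20, Scgb2b20, Smgc, Trbc1 and Zfp960, with adjusted p from 0.0507 to 0.204 without that library. The 15 lost without day 14 replicate 3 were Csrp3, Des, Fbln7, Fscn1, Ighv2-2, Iglv1, Itgax, Mfap4, Mx1, Myh1, Myh2, Nrarp, Prol1, Scgb2b17 and Trbc1. A fit on the 6 libraries of day 14 and day 0 alone called 3 higher and 9 lower genes. It has 4 residual degrees of freedom and takes its spread from these 6 libraries, while the main fit pools the spread of 9 groups. Day 0 replicate 1 had the lowest sample quality weight of all fitted libraries, 0.324. How much of the drop comes from the degrees of freedom and how much from the spread was not tested.

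**Figure D4:**
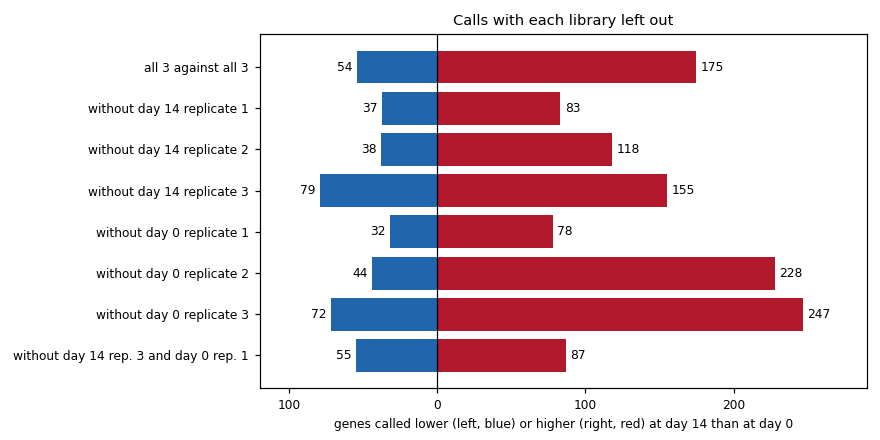
Number of genes called lower (left of 0) and higher (right of 0) at day 14 than at day 0 with all libraries, with each of 6 libraries left out and with day 14 replicate 3 and day 0 replicate 1 both left out. Higher calls run from 78 without day 0 replicate 1 to 247 without day 0 replicate 3, and lower calls from 32 to 79.

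Residue of the early response was followed in genes called at day 1 or at day 5 against saline glands, comparisons that use no day 0 or day 14 IL-1α library. The saline glands themselves differed from day 0 in the same direction as day 14 glands for all 229 called genes. Both comparisons share the 3 day 0 libraries, and the genes were chosen by distance from these, so the shared direction is largely set in advance. Of the 229, 142 changed by at least 1 log2 unit in saline glands and 90 were called there. Because saline glands differed from day 0, choosing genes against saline can shift the medians below, which do not measure residue of injury alone. The 1228 genes higher at day 1, by a median of 1.76, had a median of 0.16 at day 14 against day 0 (all genes 0.01). Of these 2.52% were called higher at day 14 and 1.38% lower, against 1.27% and 0.392% of all genes. By library the median was 0.11, 0.12 and 0.29 in replicates 1, 2 and 3. The 608 genes lower at day 1, by a median of -1.34, were at -0.04. The 983 genes higher at day 5, by a median of 1.48, were at -0.03, 0.03 and 0.43 in replicates 1, 2 and 3, and the median of 0.14 was 0 without replicate 3. Of them 2.03% were called higher and 2.03% lower. The 112 genes lower at day 5, by a median of -1.298, were at 0.35 on day 14, at 0.44, 0.45 and 0.16 in the 3 libraries, with 15 called higher (13.4%) and 2 lower (1.79%). With the genes chosen by adjusted p alone, the median was 0.051 in place of 0.16 for those higher at day 1 and 0.019 in place of 0.35 for those lower at day 5. Under scaling to library totals, which moves all genes by 0.23, the 4 medians were 0.36, 0.18, 0.33 and 0.57 in the same order.

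**Figure D5:**
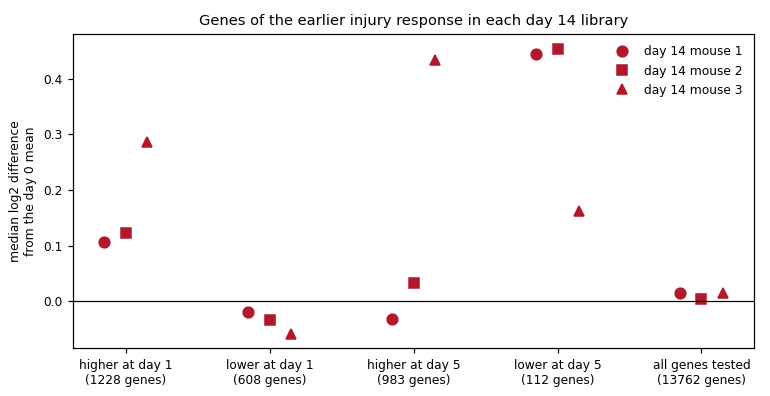
Median log2 difference from the day 0 mean in each day 14 library for genes called higher or lower at day 1 and at day 5 against saline glands, and for all genes tested; shapes give the mouse. The genes higher at day 5 are near 0 in mice 1 and 2 and at 0.43 in mouse 3, and the genes lower at day 5 are above 0 in all 3 mice (0.44, 0.45 and 0.16).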

How the data were processed

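RNA of lacrimal glands of 27 mice was measured by the authors as stranded mRNA libraries, aligned with STAR to mm10, counted per gene with RSEM and normalized with DESeq2; their versions are not given in the sources used here. The deposited signal values are RSEM's estimates, each library's divided by its own size factor. Day 7 replicate 2 was not analysed here, and 3 libraries the authors excluded stayed out of the tests, which leaves 23.

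limma 3.58.1 (R 4.3.3) was run on log2(value + 1) with 9 groups in 1 fit, a variance trend over expression and Benjamini-Hochberg adjustment over 13762 genes, those that reached 10 in 2 or more libraries. A call needs an adjusted p of 0.05 or less and a 2-fold change. Adjusted p-values are from this fit (14 residual degrees of freedom) unless another setting is named beside them, and are then from limma refitted under that setting. With 3 libraries a group, an exact two-sided permutation test of a single value cannot go below 0.1, so none was run. Nothing in the labels says how replicates were housed or processed, so p-values measure the spread between mice only. That spread, and each SE, is pooled over the 9 groups of the fit and is not that of the 6 libraries compared alone. The fit was tested on simulated data in which every gene and library had the same spread and no library stood apart. That simulation does not bear on calls that depend on single libraries.

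Named genes are the 15 with the largest change in each direction among called genes with a full symbol and groups that did not overlap, up to 4 called members of each list, and the 15 in each direction in which day 14 replicate 3 lay farthest from its group mates. Members and lists were chosen with earlier results of these data known. Alternatives were other sets of libraries, pseudocounts, filters, scalings and weights, a replicate block, and each library left out. The fit without both day 14 replicate 3 and day 0 replicate 1, and the list counts without day 14 replicate 1 and without day 0 replicate 1, were chosen after seeing the data. Gene names and coordinates are from GENCODE on GRCm38, and promoters from RefSeq on GRCm38.p6. Of the named genes, 1 is counted but not reported here.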

Additional observations from a re-analysis of the deposited data

How the results depend on the processing

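The 229 calls at day 14 against day 0 became 57 (36 higher, 21 lower) with only the 3 groups day 14, saline and day 0 fitted, 12 (3 and 9) with only the 2 groups compared, 110 (71 higher) at a pseudocount of 10, 124 (82 higher) with a value of at least 50 in 2 libraries, and 142 (87 higher) without day 14 replicate 3 and day 0 replicate 1. Adjusted p alone gave 953 (481 and 472). Scaling to library totals gave 303 higher and 27 lower, sample quality weights 114 higher, and saline as the control 0. With 1 library left out at a time, totals ran from 110 to 319, higher calls from 78 to 247 and lower calls from 32 to 79; the lowest total and lowest higher and lower counts were without day 0 replicate 1, and 120 remained without day 14 replicate 1. Day 14 against saline gave 2 calls with no filter, and 0 to 3 with 1 library left out (3 without day 14 replicate 2). Saline against day 0, 132 calls, gave 70 with all libraries, 17 with 3 groups, 6 with 2 groups, 56 at a pseudocount of 10, 63 with no filter, 78 at a minimum of 50, 219 scaled to totals, 49 without day 14 replicate 3 and day 0 replicate 1, 537 by adjusted p alone and 42 to 211 with 1 library left out.

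Day 14 medians of genes higher at day 1 were 0.36 scaled to totals, 0.051 for genes chosen by adjusted p alone, and 0.11 to 0.22 with 1 library left out. Those of genes lower at day 1 were -0.0905 at a minimum of 50, 0.18 scaled to totals and -0.0617 to -0.0183 with 1 left out. Genes higher at day 5 ran from 0 to 0.26 with 1 left out, and those lower at day 5 from 0.32 to 0.44, with 0.57 scaled to totals and 0.019 by adjusted p alone. Genes in which day 14 replicate 3 stood apart fell in number to 84 at a pseudocount of 10 and 100 at a difference of 2 log2 units, and for day 0 replicate 1 to 160 and 236. List members higher ran from 11 to 17 and list members lower from 14 to 25 when day 14 replicate 1, day 14 replicate 3 or day 0 replicate 1 was left out, with 14 lower scaled to totals and 11 higher without day 14 replicate 3 and day 0 replicate 1.

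The labels do not say whether replicate numbers pair the mice. Day 14 and day 0 libraries of the same number deviated together with r = 0.42, 0.07 and -0.08, and those of different numbers with r from -0.37 to 0.31. So few values cannot settle whether libraries of the same number share a step of processing. With a replicate block 262 genes were called, 204 higher and 58 lower. The cause of these shifts was not tested. Genes with values near 1 read are limited by depth.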

Other observations

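The abundant RNAs that rose at day 14 included several that stay in the nucleus or act in splicing. They were singled out after their values were seen, and no test of the group was made. Neat1, a long noncoding RNA that builds paraspeckles, had 9330, 12670 and 9050 at day 14, 7732, 8540 and 10451 after saline and 1553, 5260 and 5390 at day 0 (log2 change 1.53, adjusted p = 0.0126, limma). Rsrp1, an arginine and serine rich protein gene, had 2421, 2769 and 2691 at day 14 and 574, 1612 and 1650 at day 0 (1.19, adjusted p = 0.0121). Leng8 (1.39), Pnisr (1.07) and Ttc14 (1.01) were called with the same order of day 0 libraries, replicate 1 being the lowest in each. Without day 0 replicate 1 none of the 5 was called, at 0.94 for Neat1, 0.69 for Rsrp1, 0.73 for Leng8, 0.72 for Pnisr and 0.53 for Ttc14. Malat1 (0.92), Clk1 (0.84), Srsf5 (0.84) and Luc7l3 (0.62), looked at beside them, passed the adjusted p but not the fold with all libraries.

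Cirbp, a cold-inducible RNA binding protein, showed another pattern of libraries. It had 249, 250 and 126 at day 14, 209, 212 and 233 after saline and 79.0, 88.0 and 117 at day 0. Day 14 replicate 3 lay close to the day 0 range, and the change was 1.08 with it (adjusted p = 0.0123), 1.41 without it (adjusted p = 0.00167) and 0.96 without day 0 replicate 1 (adjusted p = 0.0534).

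Of the 18 genes looked at in this way, 14 were called as reported and 2 without day 0 replicate 1. The 2 were Slco1a5, an organic anion transporter, with 244, 262 and 169 at day 14, 182, 105 and 146 after saline and 93.7, 68.3 and 112 at day 0 (1.299, adjusted p = 0.00308), and Hpn, the membrane protease hepsin, with 77.7, 115 and 73.5 at day 14, 81.7, 71.2 and 90.9 after saline and 36.8, 27.4 and 40.3 at day 0 (1.31, adjusted p = 0.00334). Of the Notch pathway genes among the 18, the receptor Notch3 and the target Hes1 were called at 1.29 and 1.11, and changed by 0.97 and 0.81 without day 0 replicate 1, below the 2-fold threshold.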
